A study of Homo sapiens with 6 samples.

Results

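The androgen-responsive and apocrine marker genes examined here were the 10 genes FKBP5, PIP, AZGP1, ALCAM, TMPRSS2, KLK3, ZBTB16, DHRS2, HPGD and GGT1, chosen by name among the 36517 genes of the count table. Messenger RNA was sequenced from MDA-MB-453 cells, an established human breast cancer line, on day 3, in 6 libraries. The control group (3 libraries) carried a lentivirus with a negative-control hairpin (shNC). The shtRF group (3 libraries) carried a lentivirus with a hairpin against tRF-1-Ser, a short fragment left over when the 3' trailer of a serine tRNA precursor is removed. Both groups were thus transduced, and both were grown in serum-containing medium. Neither the labels nor the study's methods name an androgen or an androgen blocker in either group, so the comparison asks how the RNA levels of these genes differed with the hairpin and not whether they answered to hormone. The labels do not state whether the replicates came from separate transductions, so the p-values measure the spread between these libraries, which may be technical.

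Androgens act through a hormone-dependent transcriptional programme that depends on chaperones of the HSP90 system and often on the forkhead factor FOXA1, and that in prostate and apocrine epithelium switches on secreted proteins and surface proteases. Apocrine breast tumours lack oestrogen receptor and make secreted proteins of sweat-gland-like epithelium, PIP and AZGP1 among them. FKBP5 and ZBTB16 are known as targets of glucocorticoids as well, which act through the receptor NR3C1.

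Of the 10 genes, 7 held enough reads to be tested. PIP, AZGP1, ALCAM, TMPRSS2 and FKBP5 were higher in the shtRF libraries, GGT1 was lower, and DHRS2 did not pass the test. KLK3, ZBTB16 and HPGD were below detection, which here means that no library held over 10 counts. Calls were made with edgeR's quasi-likelihood test at an adjusted p under 0.05 over all 19628 tested genes, of which 20.6% were called higher and 18.9% lower. Of the 7 tested genes, 5 were thus called higher and 1 lower. Their median log2 fold change was 0.66, against -0.003 over all tested genes. Among the 6 of them with a mean of at least 1 CPM (counts per 1000000 reads), 5 were higher and 1 was lower, where 25.6% of the 14699 tested genes at that level were higher and 22.7% lower. CPM were obtained from the counts with TMM-normalised library sizes. The CPM of the groups did not overlap for 6 of the 7, which was also so for 48.7% of all tested genes. The 10 genes were chosen with earlier results of these data known, so neither these counts nor their median is an independent test.

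The 6 libraries held 63541413 to 78917459 counts, so that a floor of 3 counts lay at 0.038 to 0.047 CPM. The hairpin's target is too short for mRNA libraries, so its knockdown was not checked here. Counts of luminal breast genes fitted the labelled cell type, with KRT8 at 1557 ± 23.6 CPM (SD, n = 3) in the control group and ERBB2 at 406 ± 20.7 CPM. ESR1, which encodes the oestrogen receptor, held 4 to 26 counts in every library, although TFF1 of the same programme rose from 1.09 ± 0.104 to 9.22 ± 0.923 CPM. The other 3 tested genes of that programme did not follow to that extent. CA12 was slightly higher (log2 fold change 0.24), and PGR (0.47) and GREB1 (-0.47) were not called. Markers of other cell types were scarce. The leukocyte genes PTPRC and CD3E held at most 5 and 2 counts, and the fibroblast gene DCN at most 2. The summed CPM of 7 basal or myoepithelial markers ran from 11.9 to 13.4 in the control libraries and from 6.99 to 7.82 in the shtRF libraries. That of 9 luminal markers ran from 4326 to 4377 and from 5481 to 5967. Most of that difference lay in KRT8, which rose to 2691 CPM, and KRT18 rose from 386 to 601 CPM. Of the 9, all with a mean of at least 1 CPM, 4 were called higher and 3 were not called. Over all tested genes at that level, 25.6% were higher and 22.7% lower, and the share of lower luminal markers, 22.2%, lay near the latter. The 2 called lower were GATA3 (log2 fold change -0.14) and ERBB2 (-0.19). The summed CPM of 7 fibroblast or endothelial markers, mostly COL1A1, ran from 30.1 to 35.7 in the control and from 20.9 to 21.6 in the shtRF libraries. That of 6 leukocyte markers ran from 4.4 to 5.39 and from 5.81 to 8.2, mostly CD68, which shares 85.8% of its exonic bases with another gene. The part of these shifts in the results below was not tested. In such bulk RNA, fewer cells of a type and less RNA per cell cannot be told apart.

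The bases before the starts of PIP and KLK3 are shown because these genes lie at opposite ends of the result, PIP with the largest rise among the 10 and KLK3, the best known androgen target, at the floor, and because both hold the letters AGAACA, an arm of the palindromic steroid response element. Capitals mark AGAACA in both, and in KLK3 also TATAAA, the TATA box, read on the opposite strand. The sequences are RefSeq's on GRCh38.p14, plus strand, 250 bases ending 1 base before the start site.
PIP, chr7:143131827-143132076: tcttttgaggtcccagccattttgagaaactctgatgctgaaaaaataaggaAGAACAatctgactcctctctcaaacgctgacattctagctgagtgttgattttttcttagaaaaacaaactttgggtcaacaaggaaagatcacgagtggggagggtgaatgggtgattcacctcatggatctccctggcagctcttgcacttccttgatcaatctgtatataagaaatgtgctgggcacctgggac
KLK3, chr19:50854665-50854914: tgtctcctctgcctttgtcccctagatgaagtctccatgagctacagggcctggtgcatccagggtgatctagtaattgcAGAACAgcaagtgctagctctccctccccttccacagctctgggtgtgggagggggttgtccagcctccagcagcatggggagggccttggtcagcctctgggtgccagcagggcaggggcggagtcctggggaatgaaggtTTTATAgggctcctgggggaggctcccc
RefSeq promoters of 300 bases (250 before and 50 after the start) were at hand for 8 of the 10 genes, and those of TMPRSS2 and ZBTB16 were not analysed here. Either strand was searched. Counted from the start site, AGAACA lay at -198 to -193 in PIP, at -170 to -165 in KLK3 and on the first 6 transcribed bases of FKBP5. The other 5 promoters did not hold it. Of 35116 promoters in the same table, 14.8% held AGAACA, and 1 held the full element of AGAACA, any 3 bases and AGAACA on the other strand. Only exact matches of both arms were searched, so an element with 1 imperfect arm would be missed, in KLK3 and PIP as elsewhere. TATAAA was found in KLK3 and DHRS2 and in 11.5% of all promoters. The forkhead motif TGTTTAC was in none of the 8 and in 3.42% of all. GC content ran from 44.0% in DHRS2 to 71.0% in HPGD, around the median of 58.7% over all promoters. These matches describe the letters in a short window only, and no enhancer was examined.

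The apocrine secretory genes gave the largest rises. AZGP1 (chr7:99966720-99976157, minus strand, GRCh38) encodes zinc-alpha-2-glycoprotein, a secreted protein with the fold of MHC class I molecules. Its counts were 42421, 45869 and 56237 in control replicates 1 to 3 and 87891, 83404 and 75928 in shtRF replicates 1 to 3. In CPM these were 652, 607 and 704 against 1251, 1215 and 1224. Every shtRF library thus stood well above every control library, with a narrow spread in either group. AZGP1 rose from 655 ± 48.6 to 1230 ± 19.0 CPM (SD, n = 3 each), a log2 fold change of 0.91 ± 0.06 (SE) with a 95% interval of 0.79 to 1.03 and an adjusted p of 4.55e-11, or 1.88-fold. It was also by far the most abundant of the 10 genes. Per kilobase of exon, its mean of 347 RPKM put it at rank 99 of the 19628 tested genes.

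PIP (chr7:143132077-143139746, plus strand), the prolactin-induced protein, is the secreted protein by which pathologists recognise apocrine differentiation. The control libraries held 59, 73 and 100 PIP counts and the shtRF libraries 241, 245 and 266. The lowest shtRF library held more than 2-fold the counts of the highest control library. From 1.04 ± 0.185 CPM it rose to 3.76 ± 0.461 CPM, a log2 fold change of 1.84 ± 0.18 (95% interval 1.47 to 2.22, adjusted p = 3.05e-08), or 3.59-fold. This was the only rise of over 2-fold among the 10 genes and their largest fold on the counts as deposited. PIP is a short transcript of 585 exonic bases, and per kilobase it stood at 1.81 RPKM in the control and 6.31 RPKM in the shtRF group. Even after the rise its level was far under that of AZGP1, at 447 RPKM. Both genes lie on chromosome 7, at separate loci.

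**Figure D1:**
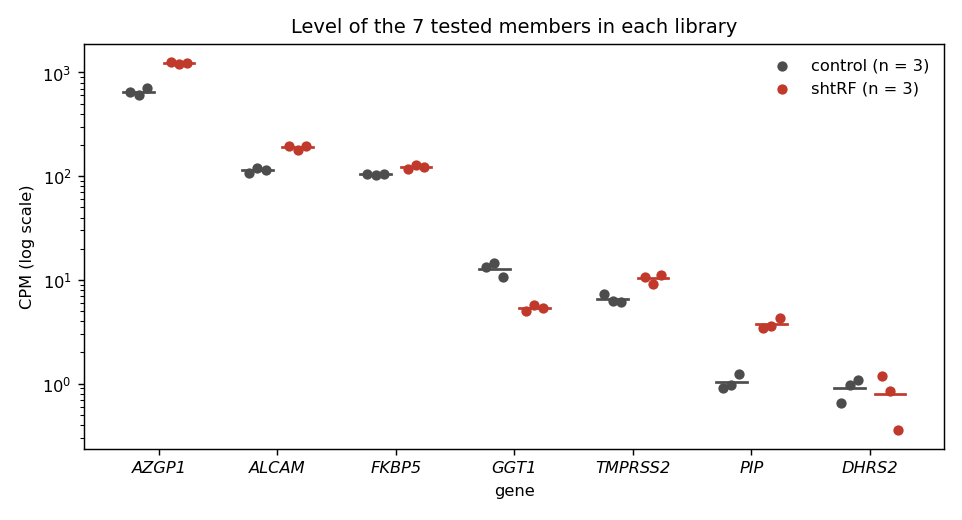
CPM of the 7 tested genes (log axis) in each control library (grey, n = 3) and shtRF library (red, n = 3), with bars at the group means. The red points lie above the grey ones for AZGP1, ALCAM, FKBP5, TMPRSS2 and PIP, below them for GGT1, and among them for DHRS2, and AZGP1 rises from 655 to 1230 CPM.

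The cell surface genes ALCAM and TMPRSS2 rose by similar folds. ALCAM (chr3:105366909-105576900, plus strand) encodes CD166, an adhesion molecule of the immunoglobulin superfamily. Its counts were 7002, 8967 and 9121 in the control and 13656, 12366 and 12065 in the shtRF libraries, and no shtRF library fell into the control range. The level went from 114 ± 5.58 to 190 ± 8.32 CPM, a log2 fold change of 0.74 ± 0.06 (95% interval 0.62 to 0.86, adjusted p = 5.6e-10), or 1.67-fold. On the scale of length it was the second most abundant of the 10, at 16.1 RPKM in the control and 25.9 RPKM in the shtRF group.

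TMPRSS2 (chr21:41464551-41531116, minus strand) encodes a membrane-anchored serine protease and is a classic androgen target of prostate epithelium. It was expressed at a much lower level, with 476, 476 and 493 counts in the control and 757, 634 and 696 in the shtRF libraries. The groups did not overlap in counts or in CPM (7.32, 6.3 and 6.18 against 10.8, 9.23 and 11.2). TMPRSS2 rose from 6.6 ± 0.626 to 10.4 ± 1.04 CPM, a log2 fold change of 0.66 ± 0.10 (95% interval 0.44 to 0.87, adjusted p = 2.31e-05). On the scale of log2(RPKM + 1), which compresses genes of low level, its difference was 0.35 and still passed the test.

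FKBP5 (chr6:35573585-35728583, minus strand), an HSP90 co-chaperone that lowers the hormone affinity of the glucocorticoid receptor and is itself induced by androgens and glucocorticoids, showed the smallest called rise. Its counts were 6811, 7761 and 8356 in the control and 8191, 8710 and 7592 in the shtRF libraries, ranges that overlapped. Scaled to library size they separated, at 105, 103 and 105 CPM against 117, 127 and 122 CPM. The control libraries lay close together, and the difference, although small, was larger than the spread within either group. FKBP5 was 17.2% higher in the shtRF group, a log2 fold change of 0.23 ± 0.05 (95% interval 0.12 to 0.34, adjusted p = 0.00129). Under 15 alternative analyses its log2 fold change stayed between 0.16 and 0.25, with adjusted p-values up to 0.0137.

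GGT1 (chr22:24583750-24629005, plus strand) encodes the cell surface gamma-glutamyltransferase that begins the breakdown of extracellular glutathione, and it was the gene of the 10 that fell. It held 862, 1103 and 862 counts in the control and 352, 391 and 331 in the shtRF libraries, so that each control library had over 2-fold the counts of each shtRF library. Its level fell from 12.9 ± 1.93 to 5.35 ± 0.341 CPM, a log2 fold change of -1.27 ± 0.11 (95% interval -1.50 to -1.04, adjusted p = 4.93e-09), or a 58.5% decrease. GGT1 shares 306 exonic bases, 6.9% of its exons, with SNRPD3, a core spliceosome protein gene on the same strand. SNRPD3 was itself lower, at 68.2 ± 3.07 CPM in the control and 36.3 ± 1.36 CPM in the shtRF group (log2 fold change -0.91, adjusted p = 3.56e-11). If the reads of SNRPD3 were spread evenly over its exons, 529, 649 and 628 of the GGT1 counts (control) and 301, 313 and 265 (shtRF) would fall on shared bases. Most counts of GGT1 could therefore belong to SNRPD3, and the level of GGT1 itself is uncertain. With that share taken off, 333, 454 and 234 counts remained in the control and 51, 78 and 66 in the shtRF libraries, and the log2 fold change was -2.26 (adjusted p = 5.87e-08, an analysis chosen after the overlap was seen). Because SNRPD3 fell less than GGT1, taking off a fixed share of its counts could only deepen the fall. The direction of that result was thus fixed in advance and adds no support, and the size depended on the share. How reads on shared bases were assigned is not given in the sources used here.

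Of 10 other genes and pseudogenes of the gamma-glutamyltransferase family, 9 were in the count table and 4 were tested, of which none was higher and 1 was lower. GGT6 was at 8.84 ± 0.533 CPM in the control and 9.57 ± 0.495 CPM in the shtRF group, with a log2 fold change of 0.11 and no call (adjusted p = 0.355). GGT7 gave 0.03 (adjusted p = 0.898). The one that fell, GGTLC2, resembles GGT1 in sequence and held 20, 26 and 16 counts in the control and 4, 0 and 6 in the shtRF libraries (adjusted p = 0.0063). Reads may be divided among such near copies.

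**Figure D2:**
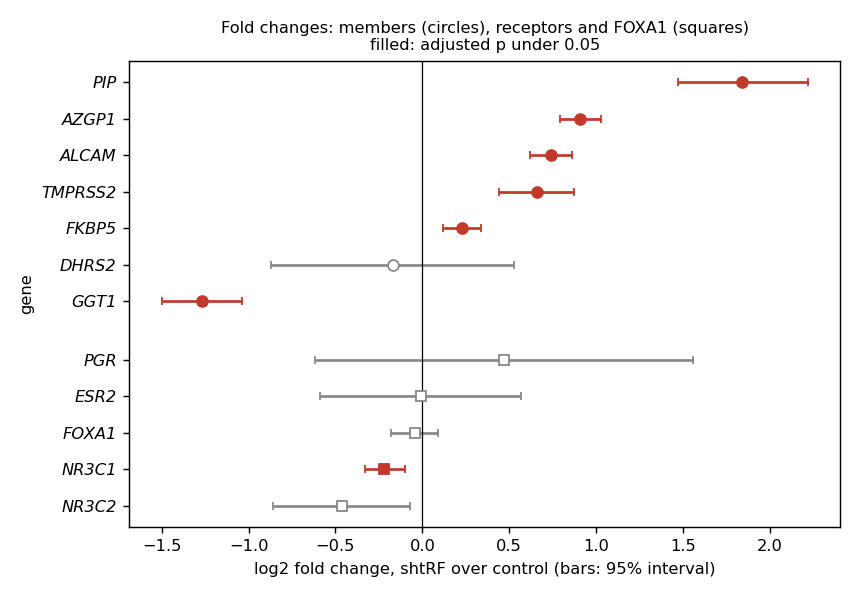
Log2 fold change (shtRF over control) with its 95% interval for the 7 tested genes (circles) and for FOXA1 and 4 tested steroid receptors (squares), filled where the adjusted p was under 0.05. PIP stands at 1.84, GGT1 at -1.27 and NR3C1 at -0.22, and the intervals of DHRS2, PGR, ESR2 and FOXA1 span 0.

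DHRS2 (chr14:23630115-23645639, plus strand), a short-chain dehydrogenase of the mitochondrion and nucleus, held 42, 74 and 86 counts in the control and 83, 59 and 22 in the shtRF libraries. The highest and the lowest CPM of all 6 libraries both belonged to the shtRF group (1.18 in replicate 1 and 0.355 in replicate 3). Levels were 0.901 ± 0.226 CPM and 0.799 ± 0.417 CPM, with a log2 fold change of -0.17 ± 0.34 and an adjusted p of 0.733. The 95% interval of -0.87 to 0.53 leaves room for a change of either sign. Its direction hung on single libraries, with -0.57 without shtRF replicate 1 and 0.18 without shtRF replicate 3, and neither passed the test.

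KLK3, ZBTB16 and HPGD were at or near the floor. KLK3 (chr19:50854915-50860764), which encodes prostate-specific antigen, had 2 counts in control replicate 1 and 0 in the other 5 libraries. ZBTB16 (chr11:114059593-114250676), the zinc finger repressor PLZF, had 2, 0 and 0 counts in the control and 2, 0 and 2 in the shtRF libraries. HPGD (chr4:174490177-174523154), the enzyme that inactivates prostaglandins, had 0, 2 and 2 counts in the control and 0, 10 and 0 in the shtRF libraries, so that 1 library held nearly all of its reads. A count of 0 allows up to 3 counts, at most 0.047 CPM, if reads were counted singly, and more if both mates of a fragment were counted. No difference between the groups was detectable at this depth. When every gene with a count was put into the edgeR test, their adjusted p-values were 0.522, 0.829 and 0.639. Of the other 14 kallikrein genes, 7 were in the table, and only KLK14, the nearest tested gene on one side of KLK3, was tested. KLK14 was at 0.62 ± 0.148 CPM and 0.646 ± 0.116 CPM (adjusted p = 0.915), and the other 6 held at most 6 counts in any library. Kallikrein transcripts were thus scarce in both groups.

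The forkhead factor FOXA1 was at 136 ± 15.5 and 132 ± 3.71 CPM in the control and shtRF groups, with a log2 fold change of -0.04 and no call (adjusted p = 0.661). Among 4 tested steroid receptors, the glucocorticoid receptor NR3C1, at 52.1 ± 0.486 and 44.9 ± 1.16 CPM, was slightly lower (log2 fold change -0.22, adjusted p = 0.00305). The mineralocorticoid receptor NR3C2 gave -0.46 and did not pass the test (adjusted p = 0.0596), although it did in 3 of the alternatives. ESR2 (-0.01, adjusted p = 0.986) and the progesterone receptor PGR (0.47, adjusted p = 0.521) were not called, and ESR1 was not tested.

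Ratios of counts within a library do not depend on the scaling between libraries. The ratio of PIP to AZGP1 was 0.00139, 0.00159 and 0.00178 in the control and 0.00274, 0.00294 and 0.0035 in the shtRF libraries, 1.93-fold higher on average. That of FKBP5 to AZGP1 was 0.161, 0.169 and 0.149 against 0.0932, 0.104 and 0.1, or 0.622 of its control mean. PIP thus gained on AZGP1 and FKBP5 lost ground, both without overlap of the groups. ALCAM was at 0.885 of its control ratio to AZGP1, also without overlap. The exact two-sided permutation test gave p = 0.1 for each of these ratios, which is the smallest value that 3 against 3 libraries allow. The ratio of TMPRSS2 to AZGP1 overlapped between the groups (exact permutation p = 0.2). The folds of PIP, AZGP1 and FKBP5 were thus unequal in these libraries, and their 95% intervals given above do not overlap. The intervals of AZGP1, ALCAM and TMPRSS2 overlap, so these 3 folds are not told apart by them.

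**Figure D3:**
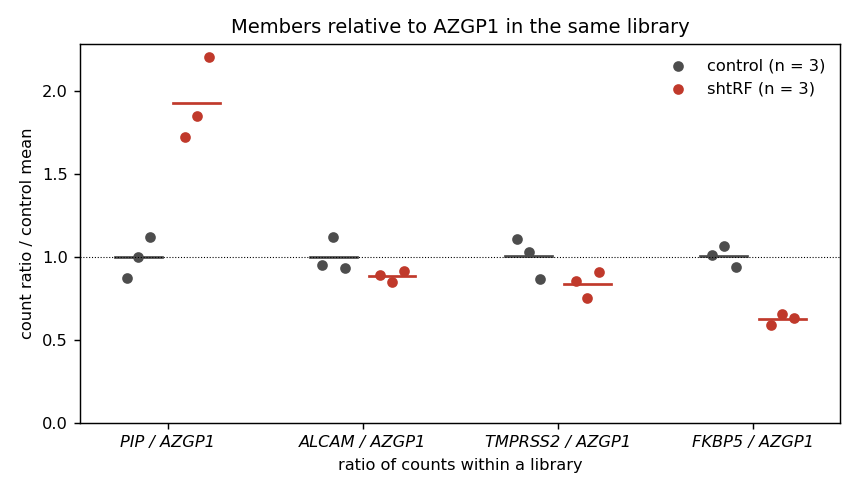
Ratio of the counts of each gene to those of AZGP1 in the same library, divided by the control mean of that ratio, for control (grey, n = 3) and shtRF libraries (red, n = 3) with bars at the group means. The shtRF points lie above the control points for PIP (mean 1.93), below them for ALCAM (0.885) and FKBP5 (0.622), and among them for TMPRSS2.

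A wider list of 99 genes known to respond to androgen was set beside the 10, which it leaves out. It had 96 genes in the table and 88 tested, of which 30 were higher and 22 lower, with a median log2 fold change of 0.03. With limma-trend on RPKM, 20 were higher and 22 lower, so that the counts depended on the method. The shares over all genes under limma-trend are not given here, so this change of balance may not be particular to the list. At a mean of at least 1 CPM, 29 of 80 were higher and 22 lower, to be read against the 25.6% and 22.7% of all genes at that level. The steepest fall was that of NDRG1, a stress- and hypoxia-responsive gene, from 51.0 ± 7.92 to 3.15 ± 1.11 CPM (log2 fold change -4.03). SCD, the stearoyl-CoA desaturase, fell from 1160 ± 33.5 to 167 ± 8.71 CPM (-2.80), and the fatty acid desaturase gene FADS1 (-0.88) and the exporter gene ABCC4 (-0.88) followed. Among the genes that rose were the cell cycle kinase CDK6 (2.42 ± 0.124 against 6.07 ± 0.747 CPM, 1.33 on the log2 scale), the guanylate cyclase subunit GUCY1A3 (1.12), the polyamine acetyltransferase SAT1 (1.06) and the phosphoinositide phosphatase INPP4B (0.99). Several of these genes are known to answer to other signals as well, such as hypoxia for NDRG1 and sterol-sensing factors for SCD. The list as a whole held falls as well as rises. It too was chosen with earlier results of these data known, so its counts are not an independent test.

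Of 21 further apocrine markers, 20 were tested, 10 were higher and 1 was lower, and the median log2 fold change was 0.27. Over all tested genes, 20.6% were higher and 18.9% lower. At 1 CPM or more, 8 of 15 were higher and 1 lower, to be read against 25.6% and 22.7% of all genes at that level. This list was chosen with earlier results of these data known, so its counts are not an independent test of an apocrine rise. UGT2B11, a gene of the UDP-glucuronosyltransferase family, had 14, 25 and 20 counts in the control and 194, 203 and 225 in the shtRF libraries (log2 fold change 3.53, adjusted p = 9.07e-11). Because its near copy UGT2B28 also rose (1.71, adjusted p = 0.0139) and reads may be divided between them, the value for either is uncertain. AGR2, a disulphide isomerase of mucus-secreting cells, rose from 74.5 ± 2.52 to 243 ± 15.7 CPM (1.71), as did TOX3 from 10.3 ± 0.34 to 30.1 ± 2.47 CPM (1.54) and MUCL1, the small breast epithelial mucin, from 4.36 ± 0.766 to 11.4 ± 1.77 CPM (1.39). FASN, the fatty acid synthase often abundant in apocrine cells, was the one that fell (528 ± 12.3 to 247 ± 3.61 CPM, -1.09). AGR2 and MUCL1 thus moved in the direction of PIP and AZGP1, and FASN moved the other way.

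**Figure D4:**
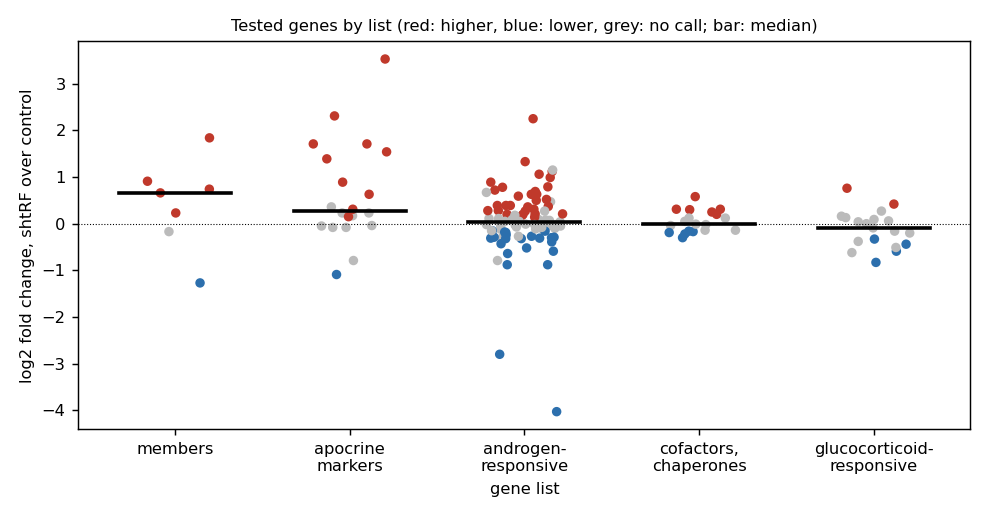
Log2 fold change (shtRF over control) of each tested gene of the 10 (7 tested) and of the 4 lists set beside them, coloured by call (red higher, blue lower, grey none) with a bar at the median. Medians are 0.66 for the 7, 0.27 for apocrine markers, 0.03 for androgen-responsive genes, -0.01 for steroid receptor cofactors and chaperones, and -0.09 for glucocorticoid-responsive genes.

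Cofactors and chaperones of steroid receptors, with androgen-metabolising enzymes, made a list of 22 genes, of which 19 were tested, 6 were higher and 5 lower, with a median of -0.01. All 19 had a mean of at least 1 CPM, and their shares of 31.6% higher and 26.3% lower lay near the 25.6% and 22.7% of all genes at that level. HSP90AA1, the inducible HSP90 and partner of FKBP5, rose from 7329 ± 1018 to 10989 ± 961 CPM (log2 fold change 0.58). The co-chaperone gene DNAJA1 rose too (0.31). FKBP4, which competes with FKBP5 for HSP90 and favours the activity of steroid receptors, fell from 555 ± 66.2 to 451 ± 47.7 CPM (-0.30, adjusted p = 0.0033), a call lost with DESeq2 (adjusted p = 0.0602). PTGES3, the HSP90 co-chaperone p23, fell as well (-0.22), as did HSPA8 (-0.19), a call lost in 2 of the alternatives, and the coactivator gene NCOA1 (-0.17), a call lost in 7 of them, among these every fit that left out a library. The steroid dehydrogenase gene HSD17B4 (0.31) and the pioneer factor gene GATA2 (0.30) were higher. The number of lower genes was 2 rather than 5 without control replicate 3, and 3 without control replicate 2 or any 1 of the shtRF replicates.

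The glucocorticoid-responsive list, which bears on FKBP5 and ZBTB16, held 22 genes, of which 19 were tested, 2 were higher and 4 lower (median -0.09). Thus 10.5% were higher and 21.1% lower, where 20.6% of all tested genes were higher and 18.9% lower. The share of lower genes was near that of all genes. TSC22D3, the glucocorticoid-induced leucine zipper, went from 88.7 ± 19.7 to 58.8 ± 4.32 CPM, or by -0.59 on the log2 scale (adjusted p = 8.01e-05). GADD45B (-0.83) and NFKBIA (-0.33) also fell, as did KLF9 (-0.44), a call lost in 5 of the alternatives. TIPARP rose (0.76), and so did PER1 (0.42), a call lost in 6 of the alternatives. Without control replicate 1 or without shtRF replicate 3, 1 gene was higher rather than 2. FKBP5 thus rose slightly, as did 2 genes of this list, where 4 others fell, among them TSC22D3, another classic target of the glucocorticoid receptor.

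Genes beside the 10 on their chromosomes were looked at for changes of the whole neighbourhood. Of the 20 nearest tested genes, 1 to either side of each by gene midpoint, 7 were higher, 5 were lower and 8 were not called, where 20.6% of all tested genes were higher and 18.9% lower. Beside PIP, GSTK1 rose (0.58, adjusted p = 8.02e-08) and KEL gave -0.15 (adjusted p = 0.735). Both neighbours of ALCAM rose on the log2 scale, CBLB at a gap of 78561 bases by 0.84 and NFKBIZ at a gap of 3505887 bases by 0.44. The nearest tested gene was thus not always close. The pseudogene AZGP1P1, which lies beside AZGP1 and resembles it, went from 10.3 to 12.9 CPM (0.33, adjusted p = 0.00791, lost in 3 of the alternatives), and exchange of reads between the pair was not tested. On the other side of AZGP1, RP4-604G5.1 rose as well (1.27, adjusted p = 0.000101). On one side of TMPRSS2, AP001610.5 fell (-2.15, adjusted p = 1.14e-09), and on the other AP001615.9 was not called. TULP1 beside FKBP5 fell too (-0.99, adjusted p = 0.00307). Beside GGT1, LRRC75B, which lies on the opposite strand within its span, was lower (-0.61), as was BCRP3 (-1.37), a call lost in 4 of the alternatives. C19orf48 beside KLK3 fell (-0.51). RP11-66N24.3 beside DHRS2 rose (0.35), a call lost in 2 of the alternatives. DHRS4, a relative of DHRS2 beside it, was higher at 33.0 against 25.7 CPM (0.36, adjusted p = 6.76e-05), where DHRS2 was not called. The neighbours of ZBTB16 and HPGD were expressed, up to 16.8 and 5.79 CPM, and none was called. RP11-87F15.2 among them lay 1785114 bases from HPGD.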

How the data were processed

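For 6 stranded mRNA libraries (3 control, 3 shtRF) sequenced in pairs, the authors deposited unnormalised counts of reads by gene. The submitters' processing notes name Trimmomatic 0.36, featureCounts, Subread 1.5.1, edgeR 3.12.1 and GRCh38, and the aligner is not given in the sources used here. The authors also deposited RPKM values, of which 4991 matched genes equalled count divided by length and library total (within 0.01%), so RPKM of all genes were recomputed in that way. Among counts of 1 to 4, 74.2% to 77.1% were even, so a fragment may be counted by both mates and low counts hold fewer molecules than they seem to. Floors cover counting error only, and the 95% intervals of fold changes come from the fit across libraries.

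Groups came from the sample titles. Counts were tested with edgeR 4.0.16 (R 4.3.3): filterByExpr with a minimum count of 10, TMM normalisation, the quasi-likelihood test with group as the only term, and Benjamini-Hochberg adjustment over 19628 genes. Standard errors were derived from the estimate and its F statistic. The fits were checked on simulated counts. Alternatives were other scalings and filters, DESeq2 1.42.0, limma-trend (limma 3.58.1) on log2(RPKM + 1) and log2(RPKM + 0.1), halved counts, a replicate block and leaving out each library.

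All 10 marker genes (the members in the plots) are named. From each list, genes with an adjusted p under 0.05 and a mean of at least 1 CPM were ranked, and up to 4 that rose most and up to 4 that fell most were named. Steroid receptors, FOXA1, family members of at least 0.5 CPM, the nearest tested genes and genes sharing exons were added. GGTLC2, UGT2B28 and the cell type markers were named outside that rule. The marker genes and lists were chosen with earlier results of these data known, and genes may stand in more than 1 list. One older symbol was used (GUCY1A3 for GUCY1A1), and 12 of 238 list entries were not matched. Some genes of the lists are not reported here and were taken out of them after the tests had been run.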

Additional observations from a re-analysis of the deposited data

How the results depend on the processing

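All 105 values of the 7 tested marker genes under 15 alternatives kept their call or, for DHRS2, the lack of one, and all but those of DHRS2 kept their direction. The number of them called higher was 5, and lower 1, in each. Across 62 named genes, 888 of 923 values kept their call or lack of one, 30 lost the call and 5 gained one, and no called value changed sign. The androgen-responsive list had 20 genes higher and 22 lower under either limma-trend setting. The glucocorticoid-responsive list had 1 gene higher rather than 2 under limma-trend with a pseudocount of 1 or of 0.1. Leaving out 1 library at a time gave 1 to 2 higher genes in that list, 1 to 2 lower apocrine markers against 1 in the full fit, and 2 to 4 lower genes against 5 in the list of cofactors and chaperones, where the cause was not tested. Same-numbered replicates shared only a number (correlations of their deviations 0.0592, 0.0178 and 0.0174), and with the number as a replicate block 4123 genes were higher and 3776 lower, against 4046 and 3704. PIP had a log2 fold change of 1.85 with that block. Genes near the floor cannot be judged at this depth.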
